A study of Mus musculus with 8 samples.

Results

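The skeletal muscle contractile genes are 10 genes of the sarcomere and of its calcium and energy supply, *Acta1*, *Myh1*, *Myh2*, *Myh4*, *Myh7*, *Tnnt1*, *Tnnt3*, *Ckm*, *Atp2a1* and *Mylpf*. They were taken from the array by gene symbol, and each matched 1 probe set, so that they made up 10 of the 22206 probe sets tested and 10 of the 19505 named genes. They serve here as a measure of how much muscle RNA was in the dissected tissue of each mouse. The tissue was the annulus fibrosus (AF), the fibrous outer ring of the intervertebral disc, taken by microdissection from lumbar discs and pooled within each mouse. KO mice, numbered 6, 7, 8 and 9, carry a global *Abcc6* deletion and are a model of pseudoxanthoma elasticum, a disorder of ectopic mineralization. WT mice, numbered 1, 2, 3 and 5, have intact *Abcc6*. All 8 mice were female and 7 months old, the KO mice are described as C57BL6J, and no treatment was given. Values are log2 signals and each array holds the RNA of 1 mouse, so that with 4 arrays per genotype small differences cannot be resolved.

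Skeletal muscle fibres contract when myosin heads of the thick filament pull on actin of the thin filament. Calcium released from the sarcoplasmic reticulum opens the thin filament through the troponin complex, and a calcium pump ends the contraction by returning calcium to the store. Fibres are called fast or slow by the isoforms of myosin, troponin and calcium pump they use. Paraspinal muscles run along the lumbar spine, while the AF itself is built by fibroblast-like and cartilage-like cells that lay down collagen and proteoglycan.

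For 9 of the 10 genes, all but *Tnnt3*, a RefSeq promoter sequence on mouse build GRCm38.p6 was at hand. The 170 bases before the start are shown for 5 of them. The fast myosin genes *Myh1*, *Myh2* and *Myh4* lie as neighbours on chromosome 11 and are shown because their signals were compared with each other across the mice. Capitals mark a 20-base stretch that the 3 windows share, and also TATAAA in *Myh1* and *Myh4* and the CArG box of *Myh4*. Each of the 3 genes is on the plus strand, at chr11:67199932-67200101 for *Myh1*, chr11:67170857-67171026 for *Myh2* and chr11:67237642-67237811 for *Myh4*.
Myh1: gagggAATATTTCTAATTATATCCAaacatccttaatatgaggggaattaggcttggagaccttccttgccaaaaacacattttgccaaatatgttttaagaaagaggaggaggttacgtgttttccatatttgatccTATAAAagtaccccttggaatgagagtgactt
Myh2: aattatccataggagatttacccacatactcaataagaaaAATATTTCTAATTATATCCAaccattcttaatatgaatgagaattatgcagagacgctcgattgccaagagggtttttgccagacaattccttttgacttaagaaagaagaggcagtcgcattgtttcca
Myh4: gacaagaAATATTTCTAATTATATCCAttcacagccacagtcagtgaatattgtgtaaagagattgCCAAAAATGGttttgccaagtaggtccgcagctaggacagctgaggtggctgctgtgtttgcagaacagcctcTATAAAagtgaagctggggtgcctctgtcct

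*Acta1* is shown because it is the actin of the skeletal thin filament, and *Atp2a1* because it had the largest difference between genotypes among the 10 genes. Both are on the minus strand and are printed along that strand, at chr8:123894776-123894945 for *Acta1* and chr7:126463074-126463243 for *Atp2a1*. Capitals mark the CArG box and TATAAA in *Acta1* and a match to CANNTG in *Atp2a1*.
Acta1: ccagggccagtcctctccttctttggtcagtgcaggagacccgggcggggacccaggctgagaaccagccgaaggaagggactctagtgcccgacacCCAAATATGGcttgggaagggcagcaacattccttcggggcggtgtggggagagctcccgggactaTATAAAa
Atp2a1: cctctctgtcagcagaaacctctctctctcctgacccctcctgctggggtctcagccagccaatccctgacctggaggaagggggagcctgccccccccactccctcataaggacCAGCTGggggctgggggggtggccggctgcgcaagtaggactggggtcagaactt

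Both strands were searched for the motifs in 32851 windows of the same length. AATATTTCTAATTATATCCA was held by 3 windows (0.00913%), those of *Myh1*, *Myh2* and *Myh4*. The CArG box, the letters that serum response factor binds, was in 1.02% of all windows and in those of *Acta1* and *Myh4*. TATAAA, the core of the TATA box, was in 8.40% of windows and in those of *Acta1*, *Myh1*, *Myh4* and *Tnnt1*. CANNTG, the E-box that myogenic factors bind, was in 51.9% of windows and in those of *Myh4*, *Myh7*, *Tnnt1*, *Atp2a1* and *Mylpf*. These are matches of letters only.

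The arrays differed in how far their controls lay apart. Signal was read against background, taken as the median of 5222 negative control probe sets of the same array, which was 5.40 to 6.0 log2 in KO and 5.43 to 5.82 log2 in WT mice. The contrast between the positive and negative control medians was 2.37 to 4.30 log2 in KO and 3.17 to 4.28 log2 in WT mice. It was highest in KO mouse 8, WT mouse 1 and WT mouse 3, and lowest in KO mouse 7. The *Abcc6* probe set itself lay above background in 1 of 4 KO and 0 of 4 WT mice (5.01 to 6.17 log2 in KO and 4.97 to 5.25 log2 in WT mice) and does not check the genotypes. Of 17 markers of annulus and tendon matrix, 13 were above background on all 8 arrays, led by decorin (*Dcn*) and chondroadherin (*Chad*). The tendon and annulus regulators *Scx* and *Mkx* and tenomodulin (*Tnmd*), named after their values were seen, were above it on 0, 1 and 4 arrays. All 12 markers of neutrophils and their precursors were also above background on all arrays.

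The 10 genes were above background about as often as all probe sets tested. Of the 80 values of the 10 genes, 50 (62.5%) were above the negative control median, namely 23 of 40 in KO and 27 of 40 in WT mice. Over all probe sets tested, that share was 60.3% to 66.8% in each array. The number of genes above background was 6, 8, 5 and 4 in KO mice 6, 7, 8 and 9, and 9, 6, 6 and 6 in WT mice 1, 2, 3 and 5. Against the median of 23 antigenomic background probe sets, added after seeing the data, it was 6, 8, 3 and 4 in these KO mice. By that level it was 6 in each WT mouse, so that WT mouse 1 did not lead. A value above this median is not a detection call, because negative controls also lie above it. At the upper quartile of the negative controls the share was 26.25%, about that of the controls themselves. Negative controls spread widely, with a 95th percentile of 9.35 to 10.96 log2. Only 2 of the 80 values exceeded that percentile, both of *Atp2a1*, in WT mouse 1 and WT mouse 3. *Acta1*, *Myh1*, *Tnnt1* and *Mylpf* were above the negative control median on all 8 arrays, *Myh7* on none, and the other genes on some of them.

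**Figure D1:**
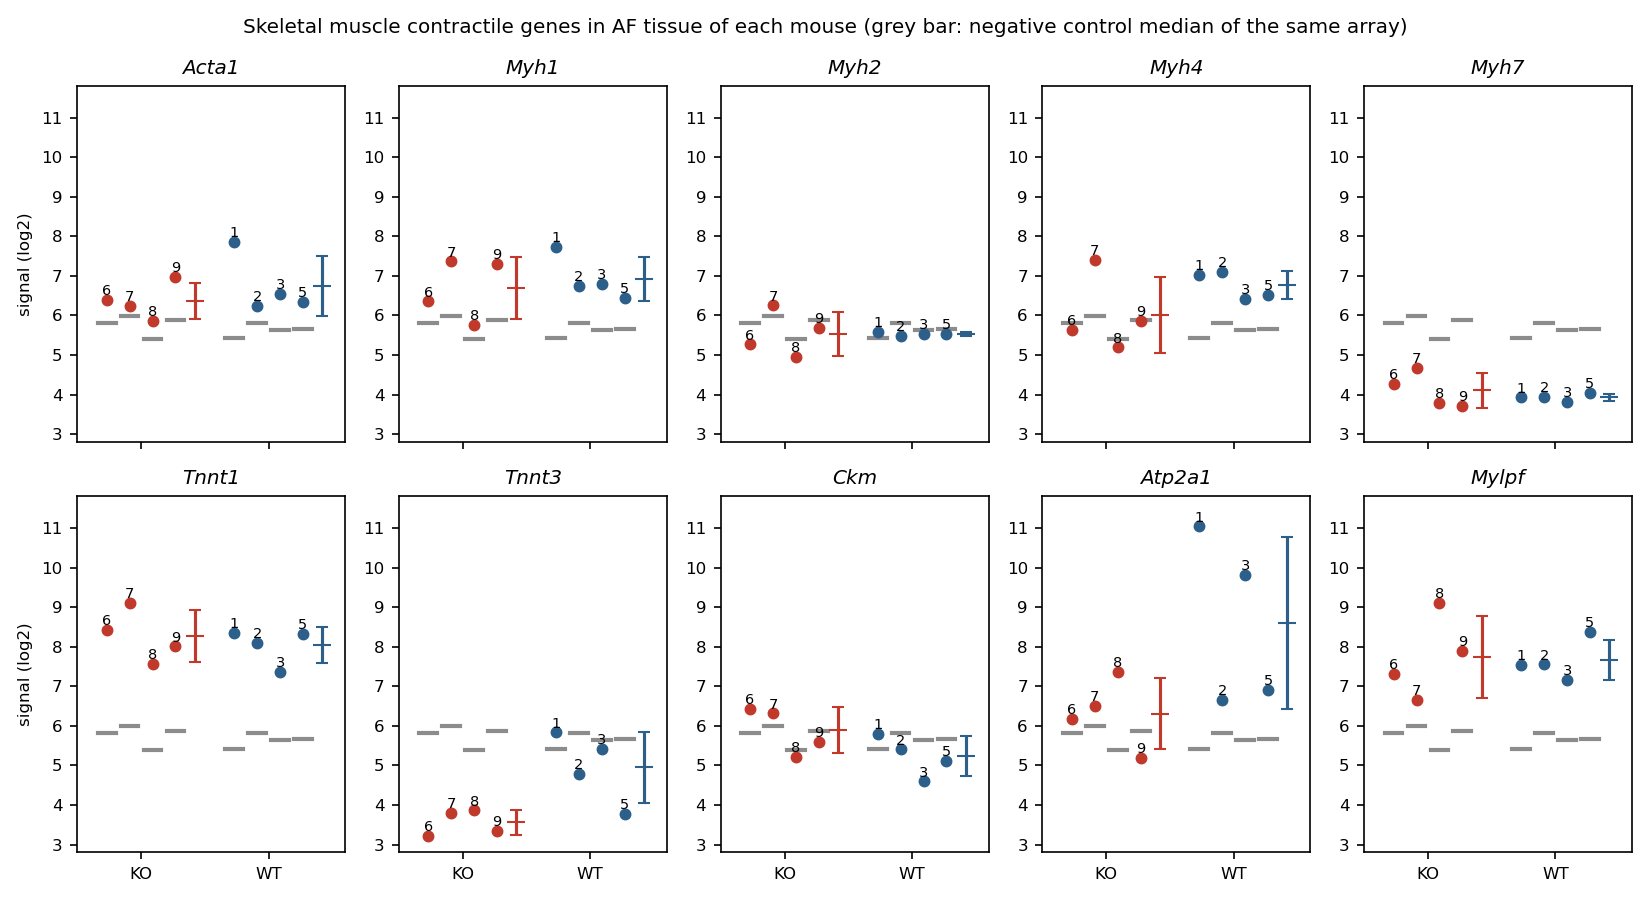
Log2 signal of each of the 10 contractile genes (1 panel each) in KO mice 6, 7, 8 and 9 and in WT mice 1, 2, 3 and 5, with the mean ± SD of each genotype beside them and the negative control median of each array as a grey bar. *Tnnt1* and *Mylpf* lie above background in every mouse, *Myh7* in none, and *Atp2a1* reaches 11.04 log2 in WT mouse 1.

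Of the thin filament genes, skeletal actin and slow troponin T were above background in every mouse, while fast troponin T was above it in 1. *Acta1*, the actin of adult skeletal muscle, stood at 6.39, 6.23, 5.87 and 6.98 log2 in KO mice 6, 7, 8 and 9, and at 7.86, 6.23, 6.54 and 6.35 log2 in WT mice 1, 2, 3 and 5. WT mouse 1 was the highest and the genotypes overlapped. *Acta1* was 0.24 to 2.43 log2 above the negative control median of the same array, and below the antigenomic median (6.0 log2) in KO mouse 8. The difference, KO minus WT, was −0.38 (SE 0.41, adjusted p = 0.859 from limma), and −0.01 without WT mouse 1. *Tnnt1*, the troponin T of slow fibres, stood at 8.43, 9.10, 7.57 and 8.01 log2 in KO mice 6, 7, 8 and 9, and at 8.34, 8.10, 7.37 and 8.33 log2 in WT mice 1, 2, 3 and 5. It was 1.73 to 3.10 log2 above the negative control median of the same array and differed by 0.24 between genotypes (SE 0.38, adjusted p = 0.891 from limma).

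*Tnnt3*, the troponin T of fast fibres, was the only one of the 10 genes that met the study's thresholds (a fold change of at least 1.75 and a limma p-value, before adjustment, of at most 0.01, called the cutoff from here on). These were met by 0.297% of all probe sets tested in this direction and by 0.725% in either direction. It stood at 3.22, 3.80, 3.86 and 3.34 log2 in KO mice 6, 7, 8 and 9, and at 5.83, 4.79, 5.42 and 3.77 log2 in WT mice 1, 2, 3 and 5. WT mice 1, 2 and 3 were above every KO mouse, while WT mouse 5 lay among the KO mice. The difference was −1.40 (SE 0.43, 95% confidence interval −2.35 to −0.45, unadjusted p = 0.00812, adjusted p = 0.848 from limma). The exact permutation test, 2-sided, gave p = 0.0857, where the smallest p that 4 against 4 mice allow is 0.0286. Of the 8 values, only that of WT mouse 1 was above background. With each KO value raised to the negative control median of its array, the WT mean was the lower one, and no fold is given. Without WT mouse 1 the difference was −1.10, with unadjusted p = 0.0230.

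The genes of the thick filament showed no difference between genotypes beyond the spread of the mice, and the fast isoforms differed among themselves in how many mice had signal. *Myh1*, the myosin heavy chain of fast IIx fibres, stood at 6.36, 7.36, 5.76 and 7.30 log2 in KO mice 6, 7, 8 and 9, and at 7.73, 6.74, 6.81 and 6.44 log2 in WT mice 1, 2, 3 and 5. It was above background in every mouse, by 0.36 to 2.31 log2, with WT mouse 1 the highest and KO mouse 8 the lowest. In KO mouse 8 it was below the antigenomic median (6.0 log2). The difference was −0.23 (SE 0.43, adjusted p = 0.904 from limma), and 0.03 without WT mouse 1.

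*Myh4*, the heavy chain of the fastest IIb fibres, stood at 5.63, 7.40, 5.20 and 5.86 log2 in KO mice 6, 7, 8 and 9, and at 7.03, 7.09, 6.42 and 6.52 log2 in WT mice 1, 2, 3 and 5. It was above background in 1 of 4 KO mice and in 4 of 4 WT mice. That KO mouse, number 7, had the highest value of all 8, and the other KO mice lay below every WT mouse. The difference was −0.74 (SE 0.45, adjusted p = 0.848 from limma). Without KO mouse 7 it was −1.20, with unadjusted p = 0.00417, which met the cutoff.

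*Myh2*, the heavy chain of IIa fibres, stood at 5.27, 6.25, 4.95 and 5.68 log2 in KO mice 6, 7, 8 and 9, and at 5.59, 5.49, 5.53 and 5.53 log2 in WT mice 1, 2, 3 and 5. Its WT values were close together and within the range of the KO values, and 1 mouse of each genotype was above background. The difference was 0.00 (SE 0.31, adjusted p = 0.999 from limma). *Myh7*, the heavy chain of slow fibres and of the heart, lay below background in all 8 mice, at 3.71 to 4.67 log2 in KO and 3.82 to 4.04 log2 in WT mice, so that no fold is given. *Mylpf*, the regulatory light chain of fast fibres, stood at 7.31, 6.66, 9.10 and 7.90 log2 in KO mice 6, 7, 8 and 9, and at 7.54, 7.56, 7.17 and 8.37 log2 in WT mice 1, 2, 3 and 5. It was above background in every mouse, its highest and its lowest value were both in KO mice, and the difference was 0.09 (SE 0.49, adjusted p = 0.969 from limma).

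The calcium pump had the widest range of the 10 genes. *Atp2a1*, the pump of the sarcoplasmic reticulum in fast fibres, stood at 6.18, 6.50, 7.37 and 5.18 log2 in KO mice 6, 7, 8 and 9, and at 11.04, 6.65, 9.81 and 6.91 log2 in WT mice 1, 2, 3 and 5. WT mice 1 and 3 stood far above the others, WT mice 2 and 5 lay below KO mouse 8, and only KO mouse 9 was below background. The mean was 6.31 ± 0.90 log2 in KO and 8.60 ± 2.17 log2 in WT mice (SD, n = 4 each). The difference was −2.30 (SE 0.92, 95% confidence interval −4.33 to −0.26), a signal 4.91-fold lower in KO mice. It did not meet the cutoff (unadjusted p = 0.0309, adjusted p = 0.848 from limma), and the exact permutation test, 2-sided, gave p = 0.114. Without WT mouse 1 the difference was −1.48, and without WT mouse 2 it was −2.95 and met the cutoff (unadjusted p = 0.00823). KO mice 6 and 7 were 0.37 and 0.50 log2 above background, so that the fold rests in part on values near it. With values floored at background the difference was −2.12 (unadjusted p = 0.0509 from limma). The 3 mice with the highest *Atp2a1*, WT mice 1 and 3 and KO mouse 8, were also the 3 with the highest control contrast, and with that contrast as a covariate the difference was −1.18.

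*Ckm*, the muscle creatine kinase that buffers ATP during contraction, stood at 6.42, 6.31, 5.22 and 5.59 log2 in KO mice 6, 7, 8 and 9, and at 5.79, 5.40, 4.60 and 5.12 log2 in WT mice 1, 2, 3 and 5. KO mice 6 and 7 were the highest and above background, as was WT mouse 1, and the other mice were below it. The difference was 0.66 (SE 0.37, adjusted p = 0.848 from limma), in the opposite direction to that of *Atp2a1*.

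The 10 genes did not move as a group with the genotype. Of them, 5 were lower and 5 higher in KO mice, with a median difference of −0.12, against 0.03 over all probe sets tested, of which 47.6% were lower. Without WT mouse 1 the median over the 10 genes was 0.03. In 0 of 10 genes did the values of the genotypes not overlap, whereas that was so for 2.53% of all probe sets tested. An adjusted p under 0.05 was reached by 0 of 22206 probe sets, and an unadjusted p under 0.05 by 1172 (5.28%), among them *Tnnt3* and *Atp2a1*. The mean over the 10 genes was 5.95, 6.43, 5.87 and 5.96 log2 in KO mice 6, 7, 8 and 9, and 7.07, 6.20, 6.35 and 6.14 log2 in WT mice 1, 2, 3 and 5. WT mouse 1 had the highest mean, KO mouse 7 the next, and the other WT mice overlapped with the KO mice. The genotype means were 6.05 ± 0.26 log2 in KO and 6.44 ± 0.43 log2 in WT mice (SD, n = 4 each), and their difference was −0.39, or −0.18 without WT mouse 1. In bulk tissue, fewer muscle fibres and less muscle RNA per fibre cannot be told apart.

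**Figure D2:**
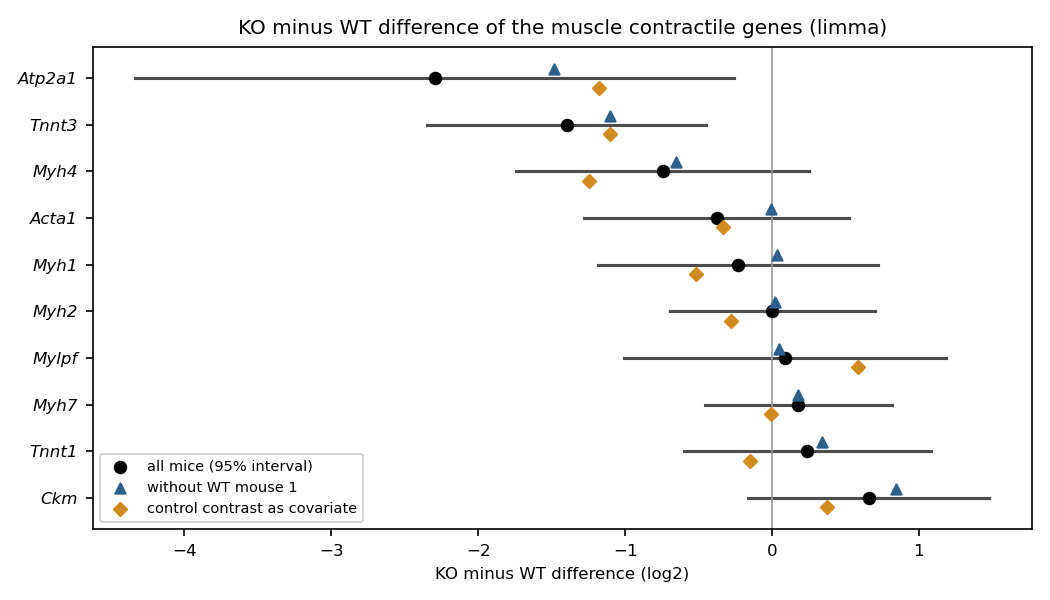
KO minus WT difference of each of the 10 contractile genes on the log2 scale with its 95% confidence interval from limma (4 mice per genotype), with the difference without WT mouse 1 as triangles and with the control contrast as a covariate as diamonds. The intervals of *Tnnt3* (−2.35 to −0.45) and *Atp2a1* (−4.33 to −0.26) lie below 0, and those of the other 8 genes span 0.

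The mouse with the highest value differed from gene to gene. WT mouse 1 was the highest in 4 genes, *Acta1*, *Myh1*, *Tnnt3* and *Atp2a1*. KO mouse 7 was the highest in *Myh2*, *Myh4*, *Myh7* and *Tnnt1*, and this array also had the highest negative control median, 6.0 log2, and the lowest control contrast, 2.37 log2. KO mouse 8 was the lowest in *Acta1*, *Myh1*, *Myh2* and *Myh4*, with the lowest negative control median, 5.40 log2, and yet the highest in *Mylpf*. The part of the control levels in these orders was not tested beyond the alternatives given at the end.

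Across the 8 mice some of the genes moved together and others apart. The correlations are descriptions over 8 arrays that share their control levels, and 4 arrays per genotype are too few for values within a genotype. Of the 45 pairs, 28 had a positive Pearson's r, 13 had r of at least 0.5 and 5 had r of at most −0.5. The median r was 0.23, and 0.00 without WT mouse 1. The highest r joined the fast genes *Tnnt3* and *Atp2a1* (r = 0.90, Spearman's rho = 0.86), but it was 0.48 without WT mice 1 and 3, so that it rested on those mice. The fast myosins *Myh1* and *Myh2* had r = 0.77 and rho = 0.86, and 0.82 without the 2 mice farthest from the median of *Myh1*. *Myh4* had r = 0.77 with *Myh2* and 0.69 with *Myh1*, which were 0.32 and 0.37 without the 2 farthest mice. Of these genes, *Tnnt3* was above background in 1 of 8 mice and *Myh2* in 2. The slow genes *Myh7* and *Tnnt1* had r = 0.86, although *Myh7* lay below background in all mice, and the fast-fibre genes *Myh2* and *Mylpf* the lowest r, −0.73. Set against the mean of the other 9 genes, *Tnnt3*, *Acta1* and *Myh1* had the highest r (0.66 each) and *Mylpf* the lowest (−0.58).

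**Figure D3:**
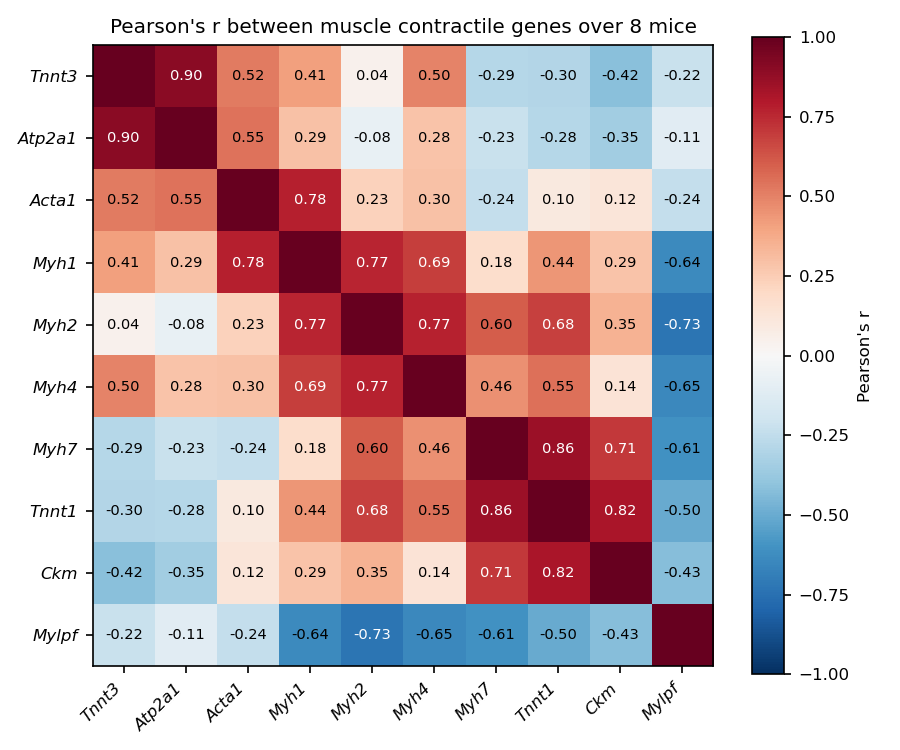
Pearson's r between each pair of the 10 contractile genes over the 8 mice, from −1 to 1 by colour with the value in each cell. The block of *Myh1*, *Myh2* and *Myh4* and the pair of *Tnnt3* and *Atp2a1* are positive, and *Mylpf* is negative with *Myh2* (−0.73).

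Other genes of skeletal muscle were measured to see whether they shared the pattern of the contractile genes. Of 115 such genes, 111 were matched, and 1 of them, *Atp2a2*, was at the cutoff, lower in KO mice, with 0 higher. Of all probe sets tested, 0.725% were at the cutoff, and 0.297% were so and lower in KO mice. In all, 45 of the 111 were lower and 66 higher in KO mice, with a median difference of 0.11. They were above background on all arrays in 26.1% of cases, against 47.8% of all probe sets tested, and on no array in 34.2%, against 21.4%. *Atp2a2* encodes the calcium pump of slow and cardiac muscle, which nearly all other cells also use. It stood at 11.79, 10.93, 11.83 and 11.57 log2 in KO mice 6, 7, 8 and 9, and at 13.03, 12.14, 13.11 and 12.88 log2 in WT mice 1, 2, 3 and 5. Every KO mouse was below every WT mouse, with a difference of −1.26 (SE 0.33, adjusted p = 0.848 from limma). That lack of overlap was so for 1 of the 111 genes and for 0.973% of all probe sets tested in this direction. The exact permutation test, 2-sided, gave p = 0.0286, the smallest that 4 against 4 mice allow, which follows from the lack of overlap. With the control contrast as a covariate the difference was −0.92, and without WT mouse 3 it was −1.15, and neither met the cutoff.

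By list, 0 of 13 fast myofilament genes, 0 of 8 slow myofilament genes, 0 of 27 scaffold genes and 0 of 18 energy genes were at the cutoff. Of 8 developmental and cardiac genes and 15 myogenic factors and membrane proteins, 0 were at the cutoff. *Atp2a2* was the only one at it of 22 genes of excitation and calcium handling. Of the 15 myogenic factors and membrane proteins, 14 were higher and 1 lower in KO mice, with a median difference of 0.31. In contrast, 11 of 18 energy genes and 5 of 8 slow myofilament genes were lower. *Tpm3*, a tropomyosin of slow muscle that other cells also make, differed by −1.10 (SE 0.60), *Pygm*, the muscle glycogen phosphorylase, by −0.81 (SE 0.39), and *Adssl1*, an enzyme of purine nucleotide cycling, by −0.83 (SE 0.48). None of the 3 met the cutoff with all mice, but *Pygm* met it without KO mouse 8 (−1.20, unadjusted p = 0.0013 from limma) and with array weights (−1.09). Other genes with the highest means of their lists were higher in KO mice or level. *Myoz1* differed by 0.51 (SE 0.36), *Myoz3* by 0.49 (SE 0.40) and *Stac3* by 0.49 (SE 0.43). *Tnni2* differed by 0.15 (SE 0.43), *Myl3* by 0.12 (SE 0.47) and *Tpm1* by −0.01 (SE 0.28). None of these met the cutoff with all mice. Among genes named after their values were seen, the genotypes also did not overlap in *Myh7b*, *Srl* and *Slc2a4*, all higher in KO mice (3 of 111 genes, where 1.55% of all probe sets tested did so in this direction). *Slc2a4*, the insulin-dependent glucose transporter, was at 6.0 to 6.48 log2 in KO and 5.69 to 5.80 log2 in WT mice, and *Myh7b* and *Srl* lay below background in every mouse. *Pax7*, the marker of muscle stem cells, and the myogenic factors *Myod1*, *Myf5* and *Myf6* were above background on 0 of 8 arrays. *Myog* was above it on 2, KO mice 7 and 8. These genes were also chosen after their values were seen. Of the 15 myogenic factors and membrane proteins, 3 were above background on all 8 arrays and 4 on none.

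WT mouse 1 stood apart in a part of the muscle genes, some of fast and some of slow fibres. It was the highest mouse in 26 of the 111 genes (23.4%, against 14.3% of all probe sets tested), and by at least 1 log2 over the next mouse in 9 (8.11%, against 3.36%). Those 9, named after their values were seen, were the myosin light chains *Myl1* and *Myl2*, the troponins *Tnnc1* and *Tnni1*, the calcium-binding *Casq1* and *Pvalb*, the glycolytic *Pgam2*, the oxygen store *Mb* and the fatty acid carrier *Fabp3*. *Tnni1* lay below background in all 8 mice, WT mouse 1 included. *Atp2a1* was the only one of the 10 contractile genes with such a gap. *Fabp3* was at 6.79 to 7.56 log2 in KO mice, while WT mouse 1 reached 11.05 log2 and WT mice 2, 3 and 5 spanned 6.09 to 6.87 log2. *Pvalb*, the calcium buffer of fast fibres, was at 5.73 to 7.02 log2 in KO mice, while WT mouse 1 reached 9.88 log2 and WT mice 2, 3 and 5 spanned 6.05 to 6.19 log2. Of all 121 muscle genes, the number at least 1 log2 above their own median over the mice was 5, 8, 3 and 6 in KO mice 6, 7, 8 and 9, and 22, 1, 6 and 3 in WT mice 1, 2, 3 and 5. The share of all probe sets so far above their median was 5.16% to 7.38% in KO mice and 1.72% to 6.81% in WT mice 2, 3 and 5. In WT mouse 1 it was 8.41%, against 18.2% of the muscle genes. The 121 genes lay a median of 0.064 log2 above their own medians in WT mouse 1. In KO mice 7 and 9 that was 0.135 and 0.119 log2. WT mouse 1 was the highest in 4 of 27 scaffold genes (14.8%) and in 0 of 15 myogenic factors and membrane proteins. It was the lowest mouse in others, such as *Myom1*, *Myom2*, *Sln* and *Trim63*, named after their values were seen.

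Markers of other tissues also stood apart in WT mouse 1, some high and some low. The mean of 10 Schwann cell and nerve markers was 6.33 to 7.28 log2 in KO mice, while WT mouse 1 reached 8.94 log2 and WT mice 2, 3 and 5 spanned 6.75 to 7.0 log2. WT mouse 1 was the highest in 8 of the 10, including *Mal*, a protein of myelin-forming cells, at 12.42 log2. Of these 10 markers, 8 were lower in KO mice, with a median difference of −0.57 (−0.064 without WT mouse 1), and 1 was at the cutoff. This was *Mbp*, the myelin basic protein, named after its values were seen, with a difference of −1.69 (SE 0.43, adjusted p = 0.848 from limma) and no overlap of the genotypes. Of all probe sets tested, 0.297% were at the cutoff and 0.973% without overlap in this direction. The part of such tissue in the muscle values of WT mouse 1 was not tested. The mean of 6 nucleus pulposus and notochord markers was 8.20 to 10.17 log2 in KO and 7.43 to 9.96 log2 in WT mice, with WT mouse 1 second to KO mouse 6. WT mouse 1 had the lowest mean of all 8 mice in erythroid markers (12.34 to 13.40 log2 in KO mice, while WT mouse 1 was at 10.87 log2 and WT mice 2, 3 and 5 spanned 12.21 to 13.28 log2). The same held for endothelial markers (7.12 to 7.75 log2 in KO mice, while WT mouse 1 was at 6.68 log2 and WT mice 2, 3 and 5 spanned 7.46 to 7.56 log2), and for bone markers it was level with WT mouse 5 at 9.84 log2, below the other 6 mice.

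**Figure D4:**
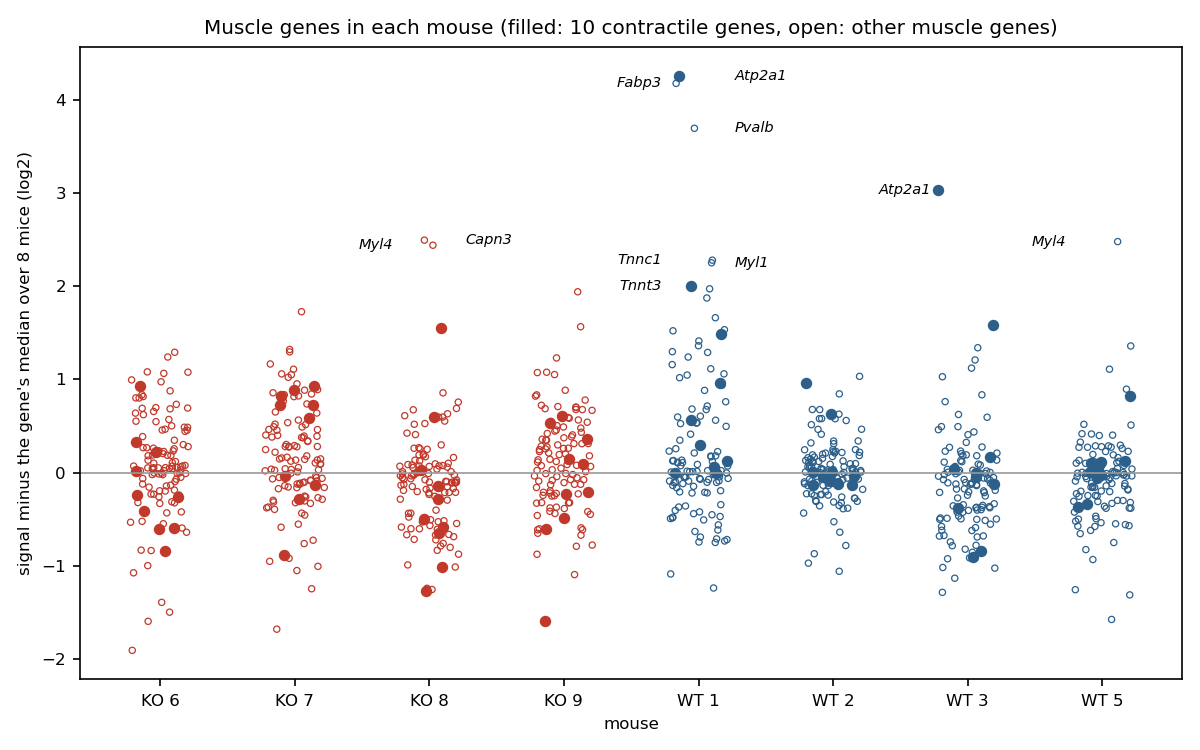
Log2 signal of 121 muscle genes in each mouse minus the median of the gene over the 8 mice, KO mice left of WT mice, with the 10 contractile genes as filled and the other 111 genes as open points, and names for values of at least 2 log2. WT mouse 1 holds 22 genes at least 1 log2 above their median, against 1 to 8 in each of the other mice, where the share over all probe sets was 8.41% in WT mouse 1 and 1.72% to 7.38% in the others.

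The genes whose pattern over the 8 mice was most like the mean of the 10 contractile genes were not among the muscle genes listed. Of the named probe sets, *Akap9* had the highest Pearson's r (0.97), followed by *Lrrc4c* (0.97), *Icmt* (0.96), *Csrnp3* (0.96), *Trim67* (0.95) and *Abhd3* (0.95). Without WT mouse 1 these were 0.91, 0.86, 0.86, 0.82, 0.81 and 0.86, and 0 of the 6 remained among the 6 most like genes, as was also so without KO mouse 7. *Akap9*, which encodes a scaffold protein of the Golgi and centrosome, was at 8.18, 8.63, 8.11 and 8.38 log2 in KO mice 6, 7, 8 and 9, and at 9.0, 8.42, 8.48 and 8.40 log2 in WT mice 1, 2, 3 and 5. Its order of mice was that of the mean of the 10 genes (rho = 1.0), with WT mouse 1 the highest and KO mouse 8 the lowest.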

How the data were processed

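AF tissue of 4 *Abcc6* KO and 4 WT mice was measured on Mouse Clariom S arrays, 1 mouse per array. The deposited table holds log2 signal that the authors summarised and normalised by sst-RMA in the Transcriptome Analysis Console, so that their scaling is already in the values. The genome build is not given in the sources used here, and no detection p-values were at hand, so that the study's detection filter was not repeated. Of 28846 probe sets, 6640 controls were left out of the tests. Symbols come from the platform annotation (19572 probe sets with 1 symbol, 0 with several, 2634 unnamed), all 10 genes were matched by identifier to GRCm38.p6, and a gene with several probe sets was read from that with the highest mean. The promoter windows are from RefSeq on GRCm38.p6.

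Differences are KO minus WT, fitted without covariates by lmFit and eBayes of limma 3.58.1 (R 4.3.3), with Benjamini-Hochberg adjustment over all 22206 probe sets. The cutoff is that of the methods, an unadjusted p-value of at most 0.01 and a fold change of at least 1.75. Permutation tests are exact. The labels name separate mice as replicates. Unless said otherwise, genes named besides the 10 were at the cutoff in a muscle list or among the 2 highest means of a list. The 6 genes most like the mean of the 10 were also named. Values are not given for all of the 2 highest of each list, such as *Mef2c* and *Sgca*. The members and lists were chosen with earlier results of these data known. The fit was tested on simulated data. Alternatives were quantile normalization, median centring, subtracting or flooring at background, a low-signal filter, a trended robust prior and array weights. Others were an unpaired *t*-test, the control contrast as covariate, other background levels and leaving out each mouse. The antigenomic background was added after seeing the data.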

Additional observations from a re-analysis of the deposited data

Results flagged for a closer look

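Among 124 groups of 4 mice (62 genes by genotype), 14 values lay far from the other 3 mice of their genotype, with a gap to the nearest of over 0.829 of the range of the group. Chance gives about 1 in 20 such groups. The 10 contractile genes gave 0 of the 14, and 9 of the 14 were in WT mouse 1. Several of the genes are named because they stood out in WT mouse 1, so that these values are no separate evidence.

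In KO mice, *Pygm* was at 9.88 log2 in mouse 8 while KO mice 6, 7 and 9 spanned 8.27 to 8.41 log2. In the same mouse *Ngp*, a neutrophil granule protein, was at 19.89 log2, while KO mice 6, 7 and 9 spanned 19.64 to 19.66 log2. *Tnnc1* was at 7.43 log2 in KO mouse 7 and *Casq1* at 5.20 log2 in KO mouse 9. In WT mice, *Myh7b*, below background in all mice, was at 4.54 log2 in mouse 5, the one low value. The other WT mice spanned 4.72 to 4.75 log2.

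The other 9 were high values of WT mouse 1. Of muscle genes, *Fabp3* was at 11.05, *Pvalb* at 9.88, *Tnnc1* at 8.65, *Casq1* at 6.30 and *Tnni1*, below background, at 5.27 log2. Of genes most like the mean of the 10, *Lrrc4c* was at 10.04, *Akap9* at 9.0 and *Trim67* at 6.67 log2. *Mal* of myelinating cells was at 12.42 log2 in WT mouse 1 while WT mice 2, 3 and 5 spanned 7.80 to 8.38 log2.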

How the results depend on the processing

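Of the 10 contractile genes, 1 (*Tnnt3*) was at the cutoff. This was 0 with array weights, the control contrast, the low-signal filter (which left out *Tnnt3*), an unpaired *t*-test and flooring at background. It was 0 to 1 when each mouse was left out. The 1 was *Myh4* without KO mouse 7, *Atp2a1* without WT mouse 2 and *Tnnt3* without WT mouse 5. Over all probe sets the 161 at the cutoff were 704 with array weights, 71 with the control contrast, 100 with the low-signal filter (fewer probe sets tested) and 73 with the *t*-test, which called 0 after adjustment and 1051 at unadjusted p under 0.05. Leaving out each mouse gave 49 (without WT mouse 3) to 992 (without KO mouse 8), and 278 without WT mouse 2, 85, 81 and 63 without KO mice 6, 7 and 9, and 104 without WT mouse 5. The split of 95 higher and 66 lower turned into 57 and 63 with flooring, 31 and 40 with the control contrast, 45 and 79 without WT mouse 1 and 47 and 57 without WT mouse 5. Of other muscle genes, 3 with array weights, 2 with the trended robust prior, 0 with the control contrast and 0 (without WT mouse 3) to 5 (without KO mouse 8) were at the cutoff. Values above background were 26.25% at the upper quartile of the negative controls and 2.5% at their 95th percentile. They were 56.25% at the antigenomic background median and 58.6% to 65.7% without single mice. Of the 6 most like genes, 3 were kept by Spearman's rho and 0 (without KO mouse 7 or WT mouse 1) to 4 without single mice. The causes were not tested.

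The sign of small differences turned. *Myh1* was 0.16 with array weights (−0.46 to 0.079 without single mice). *Myh2* was −0.28 with the control contrast, −0.046 after centring, −0.13 after subtraction of background and −0.098 after quantile normalization (−0.24 to 0.20). With the control contrast *Myh7* was −0.0071 (−0.0057 to 0.31) and *Tnnt1* −0.15 (−0.033 to 0.48). *Tnnt3* was 0.031 after flooring (−1.79 to −1.10 without single mice). *Mylpf* was −0.24 with array weights and −0.046 after subtraction of background (−0.37 to 0.45). *Acta1*, *Myh4*, *Ckm* and *Atp2a1* kept their direction in all alternatives run. No paired analysis was possible because KO and WT mice share no mouse numbers. Without detection values, signal near background could not be told from none.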

Other observations

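*Acta2* and *Actc1*, actins of other muscle types, lay above background in all mice, but *Acta2* only just in KO mouse 7 (6.05 against 6.0 log2). *Acta2*, the smooth muscle actin that is also made by myofibroblasts, was at 9.37, 6.05, 9.29 and 7.65 log2 in KO mice 6, 7, 8 and 9, and at 9.81, 8.64, 7.92 and 8.66 log2 in WT mice 1, 2, 3 and 5. KO mouse 7 was the lowest and WT mouse 1 the highest, and the genotypes overlapped (difference −0.67, SE 0.71). *Myh11*, the smooth muscle myosin heavy chain, named after its values were seen, lay below background in all 8 mice. *Actc1*, the cardiac actin that developing skeletal muscle also uses, was at 6.95 to 8.02 log2 in KO and 6.42 to 7.78 log2 in WT mice.

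*Myl4*, the light chain of atrial and embryonic muscle, was high in the same 3 mice as *Mylpf*, the fast regulatory light chain. It was at 7.54, 7.25, 9.99 and 9.49 log2 in KO mice 6, 7, 8 and 9, and at 7.56, 7.17, 6.53 and 10.03 log2 in WT mice 1, 2, 3 and 5. KO mice 8 and 9 and WT mouse 5 were high, and the other 5 mice were low (difference 0.75, SE 0.82).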
